A study of Mus musculus with 32 samples.

Results

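Ltf, the lactoferrin gene, and Trf, the transferrin gene, were each read by 2 probes on every array. These 4 of 20794 probes, and 2 of 9030 named genes, were taken by their gene symbol in the platform annotation. The 2 genes were chosen with earlier results of these data known. The data were 32 cDNA arrays with 2 colours, of which 12 held eye RNA, 12 brain RNA and 8 heart RNA. Each array set RNA of a sighted C3H sample against a pool of RNA from 6 male C3H mice labelled pde6b-, which lack the working rod phosphodiesterase gene and lose their photoreceptors. The design text names the sighted animals as 6 males of the C3H seh line. The pool for brain and heart came from the same mice and the pool for eye from other mice, and ages were not given. Every control is 1 pooled sample, so the tests leave out the spread between control animals.

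Each value is the log2 of sighted over control signal within an array, so the data give differences and no levels, and the organ labels could not be checked against the level of any marker. Odd-numbered arrays had Cy5 on the sighted RNA, and even-numbered arrays had Cy3. A replicate is the mean of 2 consecutive arrays of opposite dye, which gave 6 replicates in eye, 6 in brain and 4 in heart. The pairs follow from how the arrays are numbered, the labels do not tie arrays to animals, and the spread between replicates may be partly technical. The direction of the ratio was inferred, not stated. The median of 7 rod genes, as deposited, lay at 4.71 to 5.42 on eye arrays where Cy5 marked the sighted RNA, and at -4.37 to -3.82 where Cy3 did, and the same direction was used for brain and heart. On 1 heart array, number 7, 61.6% of values were missing.

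Transferrins are secreted proteins that hold ferric iron in a pair of similar lobes. Transferrin carries iron in plasma and delivers it to cells through the transferrin receptor. In the nervous system and eye it is also made locally, among others by oligodendrocytes, the choroid plexus and the retinal pigment epithelium. Lactoferrin is a protein of tears, milk and other secretions and of the granules of neutrophils, where it withholds iron from bacteria. The start region of the Ltf gene is shown because the gene had the larger difference of the pair. It runs from 250 bases before to 50 bases after the gene start at chr9:111019042-111019341 on the plus strand, from RefSeq on GRCm38.p6. Capitals mark the matches to a pair of short motifs, searched on both strands and chosen after the sequence was seen.
Ltf start region: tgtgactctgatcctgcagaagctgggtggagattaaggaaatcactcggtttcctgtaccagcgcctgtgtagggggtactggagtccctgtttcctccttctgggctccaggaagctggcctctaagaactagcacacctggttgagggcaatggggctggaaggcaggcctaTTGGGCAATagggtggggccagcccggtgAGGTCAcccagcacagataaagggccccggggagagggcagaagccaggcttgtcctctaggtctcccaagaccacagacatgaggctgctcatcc
The first match, 75 bases before the start, is to TTNNGCAAT, a form of the motif bound by C/EBP factors, which drive late neutrophil genes. The other, 46 bases before the start, is to AGGTCA, the core motif of many nuclear receptors. The matches do not overlap. Of 32851 start regions of this length, 2.18% held the first motif and 16.3% the other. A match is a description of letters and not evidence of binding.

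The eye arrays asked which genes differed between sighted and control eyes. Ltf RNA was lower in sighted eyes. Over the 6 replicates its log2 ratio was -2.24 at the lowest, -1.72 at the median and -1.21 at the highest. All 6 replicates lay below 0. The mean was -1.77 ± 0.39 (SD, n = 6), or 3.41-fold lower, and limma gave 5.08e-05 as its adjusted p after Benjamini-Hochberg adjustment. Of 15877 genes and unnamed probes tested in eye, 26.7% passed the adjusted p of 0.05, and 10.9% passed as lower. The 95% interval of the Ltf ratio ran between -2.08 and -1.46, and it ranked 18 from the lowest of all of them. In whole organs, fewer cells of a type and less RNA per cell cannot be told apart.

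Both Ltf probes were lower on every eye array that measured them. Probe 1 had a lowest value of -2.48, a median of -1.93 and a highest value of -0.81 on the 6 arrays with sighted RNA in Cy5. With sighted RNA in Cy3 it had -2.60, -2.30 and -1.91 on 6 arrays. Probe 2 had -1.77, -1.26 and -0.84 on 5 arrays with Cy5. With Cy3 it had -2.78, -1.76 and -0.59 on 6 arrays. The dye orientations overlapped for both probes, and 23 of 24 probe readings were present. Per replicate, probe 1 averaged -2.04 ± 0.32 (SD, n = 6), 4.12-fold lower, and probe 2 averaged -1.55 ± 0.52 (SD, n = 5), 2.93-fold lower. In a fit of single probes, in which 27% of 19088 probes passed, 11.1% as lower, the limma adjusted p was 9.24e-06 for probe 1 and 0.00100 for probe 2. Probe 1 lay below probe 2 in 5 of 5 replicates with both, by a mean of -0.52 ± 0.27 (SD, n = 5). The two-sided exact sign-flip test of this gap gave p = 0.0625, the smallest that 5 replicates allow.

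**Figure D1:**
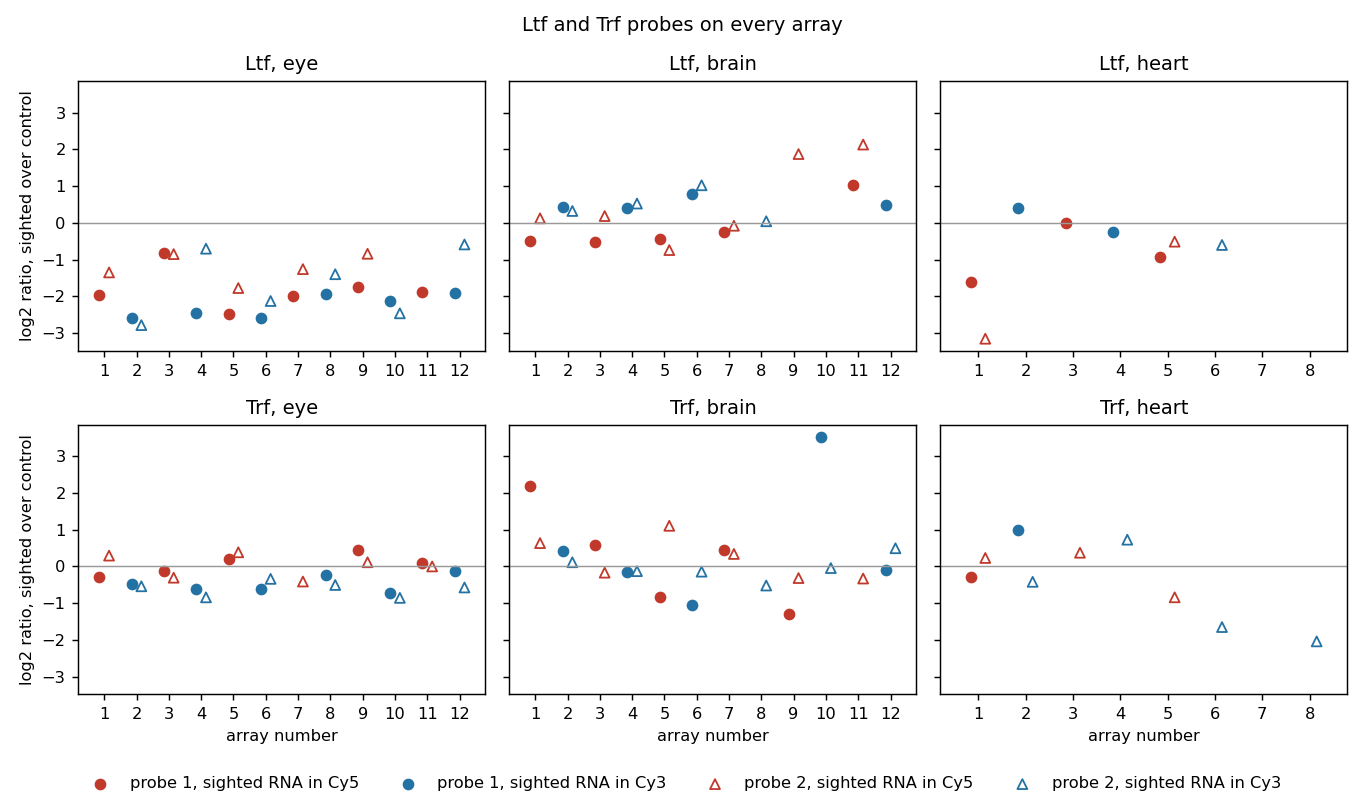
Log2 ratio of sighted over control RNA for each Ltf probe (top) and Trf probe (bottom) on every eye, brain and heart array, with array number on the x axis, filled circles for probe 1, open triangles for probe 2, red for sighted RNA in Cy5 and blue for sighted RNA in Cy3. All Ltf readings in eye lie below 0, the Trf readings in eye lie near 0 with Cy5 and below 0 with Cy3, and the brain and heart readings lie on both sides of 0 with gaps where a probe had no value.

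Trf RNA was lower in sighted eyes by a small amount. Its replicates had a lowest log2 ratio of -0.47, a median of -0.25 and a highest of -0.09, all 6 below 0. The mean was -0.27 ± 0.14 (SD, n = 6), or 1.20-fold lower, and limma gave an adjusted p of 0.0205. The call did not hold in several alternatives. Without replicate 1, 4 or 5 the adjusted p was 0.0538, 0.0702 and 0.0543, while the ratio lay between -0.27 and -0.24. Without replicates 1 and 2 together, whose blood genes stood apart, it was 0.117 at a ratio of -0.22. Of the single probes, probe 2 passed at -0.30 ± 0.22 (SD, n = 6), adjusted p = 0.0363, and probe 1 did not at -0.22 ± 0.15 (SD, n = 5), adjusted p = 0.0802, both from limma.

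The Trf readings in eye depended on the dye. With sighted RNA in Cy5, probe 1 had -0.28, 0.09 and 0.46 as lowest, median and highest value on 5 arrays, and probe 2 had -0.41, 0.06 and 0.39 on 6 arrays. With sighted RNA in Cy3, probe 1 had -0.72, -0.55 and -0.13 and probe 2 had -0.86, -0.56 and -0.34, on 6 arrays each. The Cy3 readings were therefore all below 0 and the Cy5 readings were on both sides of it. The deposited eye arrays were not centred: their medians lay between -0.06 and 0.54. The part of the ratio that follows the dye and not the RNA had a median of 0.25 over all probes in eye, and was 0.27 and 0.31 for the Trf probes. For each Ltf probe it was 0.23, so this shift was not particular to Trf. With each array centred on its median, probe 1 averaged -0.24 ± 0.38 (SD, n = 5) with Cy5 and -0.26 ± 0.18 (SD, n = 6) with Cy3. Probe 2 then averaged -0.27 ± 0.25 with Cy5 and -0.40 ± 0.18 with Cy3 (SD, n = 6 each). Centring left the mean of both orientations at -0.30, with a limma adjusted p of 0.00233.

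Of the transferrin family, 4 genes were measured in eye, and 3 were lower, Ltf and Trf among them, beside 10.9% of all features called as lower. With 1 replicate left out the count was 2 or 3, given without the share of all features in those fits. Meltf, which encodes the membrane-bound melanotransferrin, had -0.53 ± 0.24 (SD, n = 6), lower in 6 of 6 replicates, with a limma adjusted p of 0.00358. On arrays with sighted RNA in Cy5 only, uncentred, it had 0.038. The remaining gene, 1300017J02Rik, lies next to Trf on the map and had -0.04 ± 0.18 (SD, n = 6), which did not pass.

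The iron handling list took in uptake, storage, export, hepcidin control and heme synthesis. Of its 28 genes tested in eye, 4 rose and 6 fell in sighted eyes, or 10 in all, beside 15.8% of all features called as higher and 10.9% as lower. The median of the list was -0.04, beside 0.03 for all features. Of the 3 genes tested around receptor uptake, Hfe rose by 0.88 ± 0.39 (SD, n = 6), higher in 6 of 6 replicates, with a limma adjusted p of 0.00197. Hfe encodes a partner protein of the transferrin receptor. Slc11a2, the iron importer of endosomes, had -0.02 ± 0.04 and Steap3, a ferric reductase, 0.08 ± 0.65 (SD, n = 6 each), and neither passed. Both were singled out after their values were seen.

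Of 5 genes of other import routes, Slc25a28, a mitochondrial iron importer, rose by 0.40 ± 0.09 (SD, n = 6). Of 5 storage genes, the iron chaperone gene Pcbp2 rose by 0.35 ± 0.07 and its relative Pcbp1 had -0.88 ± 0.51 (SD, n = 6 each). The ferritin chain genes Fth1 and Ftl1 had -0.07 ± 0.18 and -0.07 ± 0.30 (SD, n = 6 each) and did not pass. Of 6 genes of the hepcidin axis, Hjv, the hemojuvelin gene, which skeletal muscle also expresses, had -0.93 ± 0.37 (SD, n = 6), and Smad4 rose by 0.24. Of 6 genes of heme and iron-sulfur use, Alas1, the first enzyme of heme synthesis outside red cells, had -0.44 ± 0.21 (SD, n = 6). The other genes that fell were Iscu at -0.32, Fech at -0.25 and Cp, the ferroxidase ceruloplasmin, at -0.33. These 3, Fth1, Ftl1 and Smad4 were added after their values were seen. The genes past the threshold had limma adjusted p between 0.00116 and 0.0490. With every array on its own 6 genes of the list passed. The share of all features in that fit is not given, so a drop in calls over all features cannot be told apart. Without replicates 1 and 2 together 3 of 30 rose and 4 fell, beside 18.3% of all features called.

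**Figure D2:**
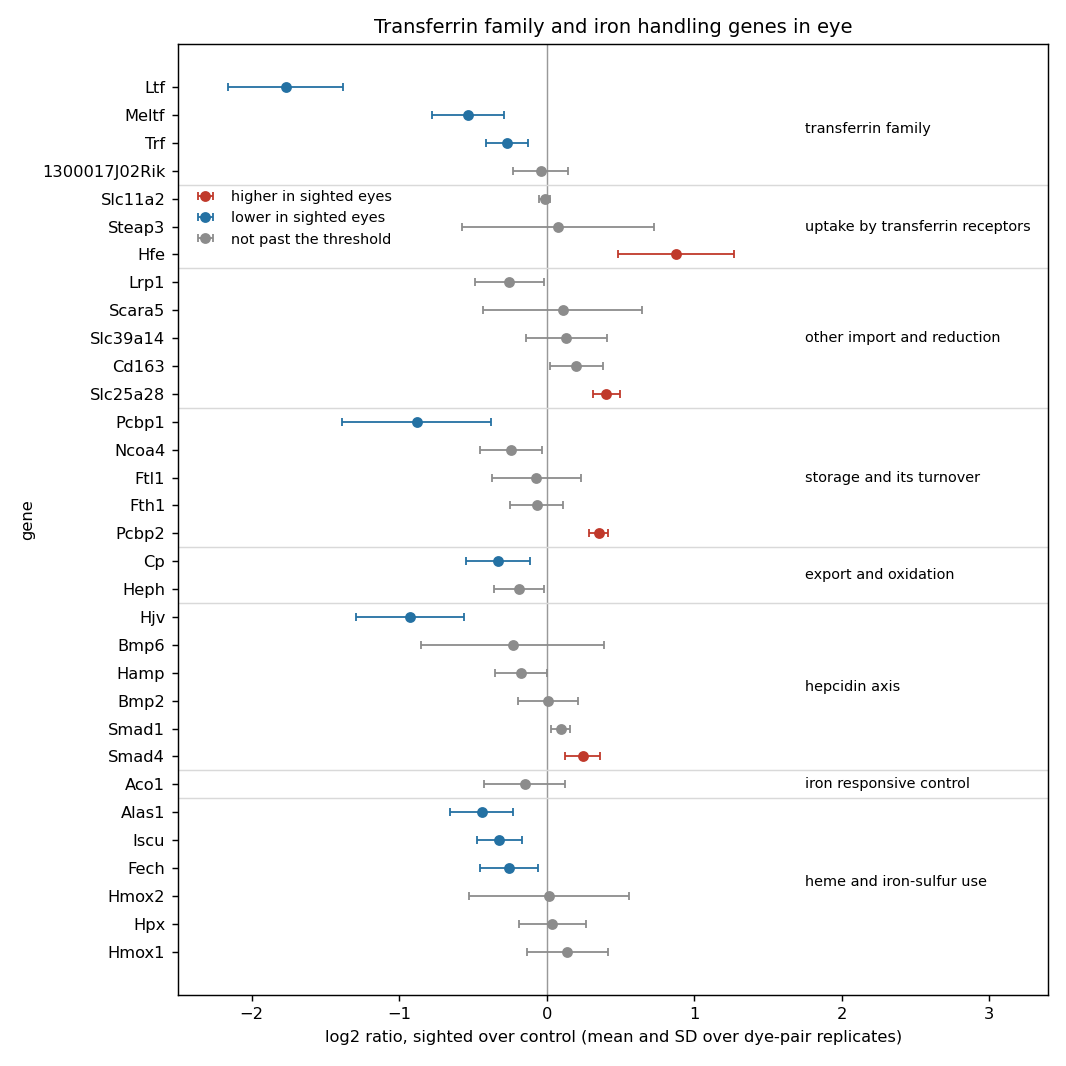
Mean log2 ratio of sighted over control RNA in eye (x axis) with SD over the dye-pair replicates for the transferrin family and the iron handling genes, grouped by role down the page. Red marks genes higher in sighted eyes, blue marks genes lower in sighted eyes and grey marks genes that did not pass. Ltf, at -1.77, lies left of every other gene shown, and the list has calls on both sides of 0.

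Ltf is known from several cell types, and lists of their markers were read in the same eyes. Among 10 neutrophil granule genes the limma fit made 0 calls, 1 gene had an unadjusted p under 0.05, and the median was -0.003, while 26.7% of all features were called. Lcn2, the lipocalin stored in the same granules as lactoferrin, had -0.34 ± 0.40 and Elane, the neutrophil elastase gene, 0.14 ± 0.16 (SD, n = 6 each), neither past the threshold. Without replicate 2, 2 genes of this list were called, 1 in each direction, given without the share of all features in that fit. Of 8 genes of exocrine gland secretion, 5 fell and 1 rose, with a median of -0.46, beside 10.9% of all features called as lower and 15.8% as higher. Wfdc2 had -1.02 ± 0.24, Wfdc18 -0.75 ± 0.18 and Pigr, the receptor that carries antibodies into secretions, -0.62 ± 0.12 (SD, n = 6 each), with limma adjusted p between 0.000142 and 0.000266. The riser was Cst3, the cystatin C gene, at 0.43 ± 0.11 (SD, n = 6), and was picked with its value known.

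Among the 12 corneal and surface epithelial genes, 10 fell and 0 rose, with a median of -1.05, beside 10.9% of all features called as lower. The same share applies to the immune and blood lists. Krt15, a basal keratin gene, had -0.86 ± 0.12, Tkt, the transketolase gene, -1.01 ± 0.26 and Krt14, another basal keratin gene, -1.06 ± 0.33 (SD, n = 6 each). Of 15 immune and microglia genes, 11 fell and 0 rose, with a median of -0.44. H2-K1 and Lgals3, a histocompatibility and a galectin gene, had -1.01 ± 0.18 and -0.85 ± 0.13, and Ctss, a cathepsin gene of antigen-presenting cells, had -0.89 ± 0.15 (SD, n = 6 each). Without replicate 4 the immune count was 7. The share of all features in that fit is not given, so a drop in calls over all features cannot be told apart. All 4 blood genes tested fell, with a median of -1.50. Alas2, the heme synthesis enzyme of red cells, had -1.22 ± 0.47, Slc4a1, their anion exchanger, -0.43 ± 0.13 and Hba-x, an embryonic globin gene, -1.79 ± 0.87 (SD, n = 6 each). These lists moved with Ltf in sign, and their part in its difference was not tested.

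Across the eye replicates, Ltf had -2.17 in replicate 1, -1.21 in replicate 2, -2.24 in replicate 3, -1.65 in replicate 4, -1.79 in replicate 5 and -1.57 in replicate 6. The replicate medians of the cornea list were -1.63, -0.82, -1.07, -1.01, -1.03 and -0.71 in the same order. Those of the gland list lay between -0.71 and -0.35, and those of the neutrophil list between -0.09 and 0.12. The blood list had -2.25 and -2.40 in replicates 1 and 2, against -1.39 to -0.81 in the others. For Ltf, replicate 6 joined probe 1 alone with Cy5 to both probes with Cy3, and probe 1 by itself gave -1.90. Ltf had its second lowest value in replicate 1 and its highest in replicate 2, and without both its ratio was -1.81. Without them the counts were 10 of 12 lower for the cornea list, 4 of 8 lower and 1 higher for the gland list, 7 of 15 lower and 1 higher for the immune list and 0 of 11 for the neutrophil list, beside 18.3% of all features.

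**Figure D3:**
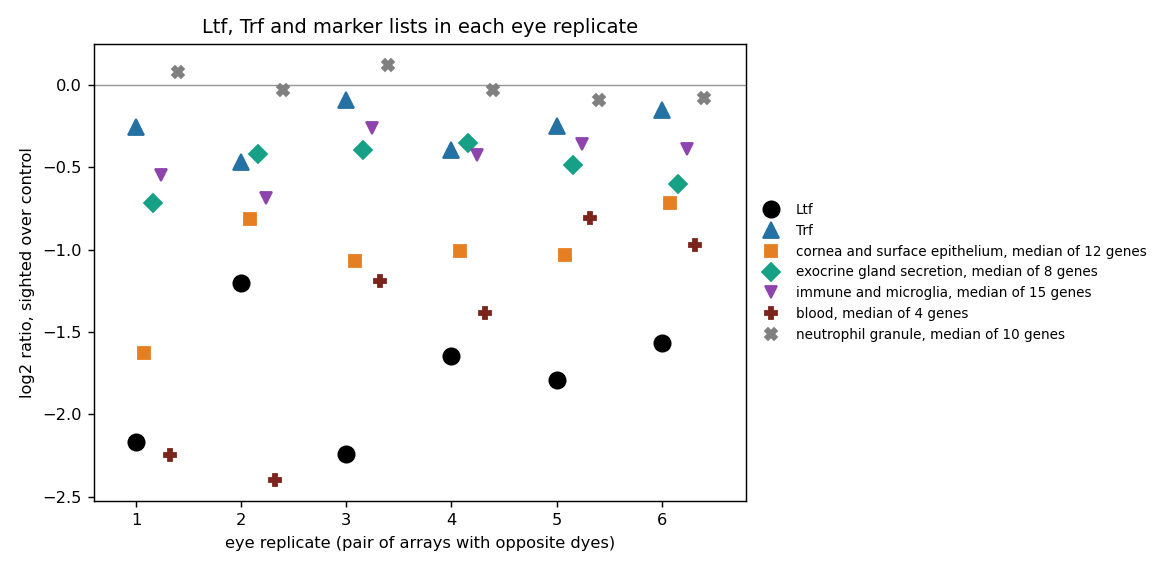
Log2 ratio of sighted over control RNA (y axis) in each eye replicate (x axis) for Ltf (black circles), Trf (blue triangles) and the medians of 5 marker lists. Ltf lies between -2.24 and -1.21, the neutrophil granule median stays between -0.09 and 0.12, and the blood median is lowest in replicates 1 and 2.

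For Trf, markers of oligodendrocytes, retinal pigment epithelium and choroid plexus, which are known to make transferrin, were read. Lists of other cells and of plasma proteins were read beside them. Of 7 oligodendrocyte and myelin genes, 2 were called, both lower, and the median was -0.02. Of all features, 10.9% were called as lower, 15.8% as higher and 26.7% in either direction. The same shares apply to the other lists of this paragraph. Mbp, a myelin protein gene, had -0.34 ± 0.21 and Cldn11, a claudin of myelin, -0.24 ± 0.16 (SD, n = 6 each). With 1 replicate left out, limma called 0 to 2 of the 7, given without the share of all features in those fits. Mbp kept its call in 3 of 6 such fits, with adjusted p up to 0.0594, and Cldn11 in 1 of 6, with adjusted p up to 0.0885. Without replicates 1 and 2 together limma called 0 of the 7, beside 18.3% of all features. Of 4 genes of the retinal pigment epithelium, Rdh5, a retinol dehydrogenase gene, rose by 0.26 ± 0.15 (SD, n = 6), but had -0.012 on uncentred arrays with sighted RNA in Cy3. With 1 replicate left out it kept its call in 1 of 6 fits, with limma adjusted p up to 0.0729. The other 3 did not pass. Of 4 choroid plexus and ciliary body genes with a value in every replicate 1 rose and 1 fell, and of 10 acute phase and plasma protein genes 1 rose and 2 fell. Of 12 Mueller and astroglia genes 1 rose and 3 fell, of 7 neuron genes 3 rose and 1 fell, and of 7 cardiomyocyte genes 4 fell. Taken in either direction, the counts of the oligodendrocyte, retinal pigment epithelium, acute phase and Mueller lists lie near the 26.7% of all features. All 7 rod genes rose. The part of any of these cell types in the Trf difference was not tested.

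The genes whose eye replicates lay nearest to those of Ltf, out of 8179 named genes and by root mean square distance of log2 ratios over 6 replicates, were Egr1 at a distance of 0.57, Klf4 at 0.59, Krt12 at 0.60, Aldh3a1 at 0.60 and Gsta4 at 0.61. Krt12 and Aldh3a1 encode the corneal keratin and a dehydrogenase abundant in corneal epithelium, and Klf4 is a transcription factor gene of epithelia. Of the genes nearest in eye, only Krt12 and Aldh3a1 were on the cornea list. Egr1, the nearest, Klf4 and Gsta4 were on none of the 15 lists. Over 14 replicates of all organs the nearest of 6717 genes were Aldh3a1 at 0.49, Klf4 at 0.53, Trim29 at 0.57, Gsta4 at 0.60 and Calml3 at 0.63. By comparison, the distances of genes to Trf were smaller. In eye, Trf at -0.27 lay inside the range from the 5th to the 95th percentile of all features, -0.49 to 0.56. Ltf at -1.77 lay outside it, where fewer genes have a like ratio. The distances therefore do not compare likeness between the 2 genes. The nearest to Trf in eye were Alad at 0.053, Mpnd at 0.056, Gpc1 at 0.061, Fgf10 at 0.062 and Ass1 at 0.063. Alad encodes an enzyme of heme synthesis, but no gene of this set was on any of the 15 lists. Over 15 replicates of all organs the nearest to Trf were Hmgcs1 at 0.26, Cask at 0.27, Cnmd at 0.28, Prss21 at 0.29 and Tmem255a at 0.29, a different set of genes. All replicates of an organ share the control pool.

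Ltf and Trf both lie on chromosome 9. Of 21 protein-coding genes tested within 1 Mb of Ltf on the RefSeq map, 4 rose and 2 fell in eye, and of 13 near Trf 2 rose and 1 fell. Both shares lie near or below the 26.7% of all features. Ccrl2, the next gene after Ltf, had -0.50 ± 0.20, and Srprb, the gene before Trf, rose by 0.28 ± 0.22 (SD, n = 6 each). These were chosen by position.

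In brain, neither gene passed. Ltf had -0.05, 0.10, 0.15 and 0.15 in replicates 4, 1, 2 and 3, and 1.03 in replicate 6, while replicate 5 lacked a value. Replicate 6 stood apart from the other 4. The mean was 0.28 ± 0.43 (SD, n = 5), with a limma adjusted p of 0.959 and a 95% interval of the ratio between -0.10 and 0.65. Without replicate 6 the ratio was 0.088. Of 16114 features 0.00621% passed in brain, which is 1 feature. Probe 1 read -0.45 at the median of 5 arrays with sighted RNA in Cy5 and 0.46 at the median of 4 arrays with Cy3, so its sign turned with the dye. Probe 2 read 0.16 at the median of 6 arrays with Cy5 and 0.43 at the median of 4 arrays with Cy3. Its highest readings, 1.875 and 2.133, were on arrays 9 and 11 with Cy5, and their partner arrays lacked a value.

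Trf in brain had a lowest replicate of -0.23, a median of -0.01 and a highest of 0.84, with 3 above 0 and 3 below. The mean was 0.17 ± 0.41 (SD, n = 6), with a limma adjusted p of 0.959 and a 95% interval between -0.16 and 0.49. The probes differed in spread. Probe 1 ranged from -1.30 to 2.20 on 5 arrays with sighted RNA in Cy5 and from -1.05 to 3.53 on 5 arrays with Cy3. Probe 2 ranged from -0.33 to 1.11 and from -0.52 to 0.50 on 6 arrays each. By replicate, probe 2 averaged 0.09 ± 0.28 (SD, n = 6), and probe 1 had only 4 replicates and was not tested. In brain, limma passed 0 of 28 iron handling genes, and 1 had an unadjusted p under 0.05.

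In heart, too, neither gene passed. Ltf had -0.98, -0.12 and -0.66 in replicates 1, 2 and 3, all below 0, and replicate 4 lacked a value. The mean was -0.59 ± 0.43 (SD, n = 3), with a limma adjusted p of 0.580 and a 95% interval between -1.16 and -0.01. Only 5 of 8 arrays measured probe 1 and 3 of 8 measured probe 2. Probe 1 read -1.59, -0.92 and -0.002 with sighted RNA in Cy5, against 0.41 and -0.25 with Cy3, so its mean of -0.84 with Cy5 stood beside 0.08 with Cy3. Probe 2 read -3.15 and -0.51 with Cy5 and -0.60 with Cy3. Replicate 1 thus joined readings of -1.59 and -3.15 with Cy5 to a reading of 0.41 with Cy3. Trf had 0.13, 0.55 and -1.24 in replicates 1, 2 and 3, on both sides of 0. Its mean was -0.19 ± 0.94 (SD, n = 3), with a limma adjusted p of 0.867 and a 95% interval between -1.15 and 0.78. Limma called 0% of 12796 features in heart, with 1021 at an unadjusted p under 0.05. Iron handling genes had 0 calls among 23, and 2 had an unadjusted p under 0.05.

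**Figure D4:**
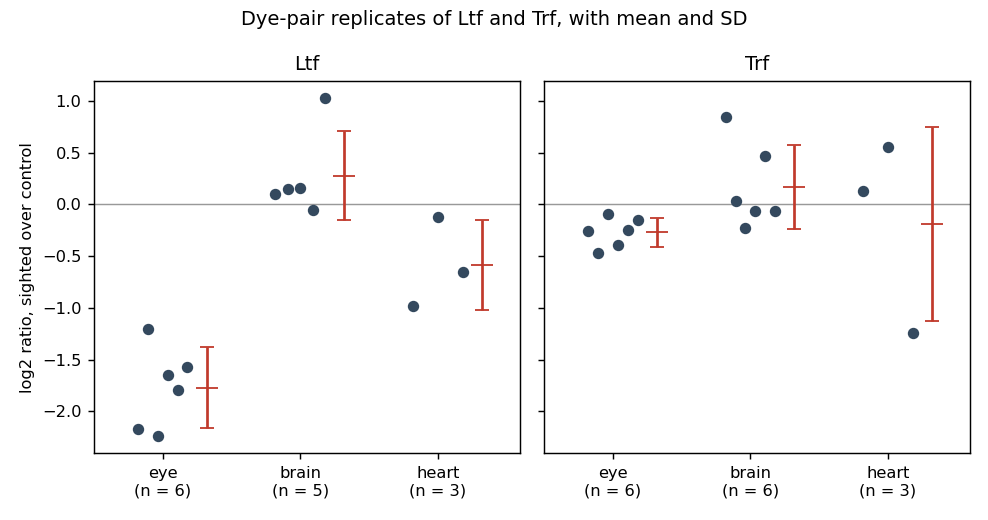
Log2 ratio of sighted over control RNA (y axis) of Ltf (left) and Trf (right) in eye, brain and heart, with a dark point per dye-pair replicate and the mean ± SD in red beside the points. The 6 eye replicates of Ltf lie below all 5 brain and all 3 heart replicates, while those of Trf overlap the other organs.

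In order of the ratio, Ltf had -1.77 in eye, -0.59 in heart and 0.28 in brain. The eye and brain replicates did not overlap, and eye minus brain was -2.05, with a 95% interval between -2.49 and -1.60 and an adjusted p of 6.59e-06 from each organ's limma variance. In this comparison 18.2% of 15503 features passed, 7.06% below 0. Eye minus heart was -1.18, with a 95% interval between -1.78 and -0.59 and an adjusted p of 0.0435, beside 4.17% of 12588 features, or 1.78% below 0. Those replicates did not overlap either, but the call was lost without eye replicate 1 or 3 and without any 1 of the 4 heart replicates, of which replicate 4 has no Ltf value and changed only the features tested, at adjusted p between 0.0588 and 0.242. In simulated data for eye minus brain, this kind of test gave a larger share of false calls than its threshold, and eye minus heart was not simulated. Paired by replicate number, eye minus heart was -1.28 at an adjusted p of 0.0644. Brain minus heart was 0.86, with an adjusted p of 0.571, beside 0% of 12729 features. The neighbours heart and brain in this order thus did not differ past the threshold.

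Trf had -0.27 in eye, -0.19 in heart and 0.17 in brain. Its organs overlapped and no pair differed past the threshold. Eye minus brain was -0.43, with a 95% interval between -0.78 and -0.09 and an adjusted p of 0.0798. Eye minus heart was -0.08, between -1.05 and 0.88, and brain minus heart was 0.35, between -0.62 and 1.32. Brain and heart share their control mice, which these tests do not model.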

How the data were processed

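Total RNA was reverse transcribed, labelled indirectly with Cy3 or Cy5 and hybridised with control cDNA, per the labels' protocols. The authors deposited log2 ratios of likely Cy5 over Cy3. The sources used here do not name the scanner, the background correction or the normalization. Most arrays repeat 1 top value above 15, and these 4170 values were treated as missing; none was a Ltf or Trf value. Brain array 3 has Cy5 on both channels per the labels, and its sighted RNA was taken as Cy5.

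Of 20794 probes, 12771 carried 1 symbol. Ratios with sighted RNA in Cy3 changed sign, probes of a gene averaged and consecutive arrays averaged to a replicate. A gene could miss 1 replicate. Each organ was fitted with limma 3.58.1 in R 4.3.3 against 0, two-sided, with Benjamini-Hochberg adjustment over all genes and unnamed probes. Organ differences used each organ's moderated variance; in simulated data for eye minus brain, the one pair simulated, this gave a larger share of false calls than its threshold. The number of arrays limits the precision.

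The members and the 15 lists were chosen with earlier results of these data known. By rule, called list members with the smallest p were named, up to 6 for iron handling and 3 for other lists, or 2 where none was called. Fewer were named for lists read only by count. Alternatives were other replicates, centring, scaling, top values, missing values, moderation, dyes, spread, probes and left-out replicates.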

Additional observations from a re-analysis of the deposited data

Results flagged for a closer look

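The Ltf ratio of brain replicate 6, at 1.03, lay far from the other 4 brain replicates, which ran from -0.05 to 0.15. In the same replicate, Ltf probe 1 had 1.03 on brain array 11, while the other 4 readings with sighted RNA in Cy5 lay between -0.52 and -0.23. Probe 2 had 2.13 on array 11 and no value on array 12. The replicate thus joined both probes with Cy5 to probe 1 alone with Cy3, and probe 1 by itself gave 0.75. Cldn11 in eye replicate 2 had -0.57, against -0.23 to -0.14 in the other 5. Of 53 groups examined this way, chance would mark about 1 in 20.

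The Ltf difference between sighted and control RNA itself differed between organs, by -2.05 for eye minus brain and by -1.18 for eye minus heart. The second rested on 3 heart replicates.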

How the results depend on the processing

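Ltf in eye kept its direction and its call in every alternative run, and with 1 replicate left out its ratio ran from -1.88 to -1.68. Trf in eye lost its call with every array on its own at -0.27 (limma adjusted p 0.123), without replicates 1 and 2 together at -0.22, and with sighted RNA in Cy5 only and centred arrays at -0.28 (0.0970). With Cy5 only and arrays as deposited it was 0.0021. With 1 replicate left out it ran from -0.30 to -0.23, with adjusted p between 0.0247 and 0.0702. The iron handling count in eye, 10, was 6 with every array on its own and 7 to 9 with 1 replicate left out. With Cy5 only and uncentred arrays its split was 8 higher and 1 lower, and with Cy3 only 0 higher and 13 lower, against 4 higher and 6 lower with both. These counts are given without the share of all features in the same fits, so they do not set iron handling genes apart from other genes. Over all probes in eye, the part of the ratio that follows the dye had a median of 0.25. The same dye settings turned Meltf to 0.038, Lcn2 to 0.0096 and Rdh5 to -0.012. Elane turned to -0.32 with Cy3 only and to -0.11 with centring as well.

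Of the organ differences, Ltf eye minus heart lost its call with the replicate block, at -1.28, and ran from -1.38 to -0.95 with 1 replicate left out. Ltf eye minus brain ran from -2.16 to -1.86 and Ltf brain minus heart from 0.67 to 1.10. Without single replicates Trf eye minus brain ran from -0.51 to -0.30, eye minus heart from -0.61 to 0.29 and brain minus heart from -0.18 to 0.72. Trf eye minus heart turned to 0.079 and 0.29 without heart replicate 1 and 2, and Trf brain minus heart to -0.18 without heart replicate 3. Without a replicate, Ltf ran from 0.088 to 0.36 in brain and from -0.82 to -0.39 in heart. Trf ran from 0.030 to 0.24 in brain and from -0.56 to 0.34 in heart, where it was 0.34 without replicate 3. The replicate block changed no other call. Same-numbered replicates of different organs had correlations between -0.044 and 0.049, so the numbers were not taken as pairs. The median of 2 probes equals their mean, so that setting left the Ltf and Trf ratios as they were. Where every replicate was needed, Ltf in brain and both genes in heart gave no value. Causes were not tested.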
